A study of Mus musculus with 2 samples.

Results

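The 5 microRNA genes Mir191, Mir361, Mir423, Mir425 and Mir186, which often serve as expression references, were followed in 2 microRNA-seq libraries of mouse hippocampus. They were chosen by name as broadly expressed normalizers, by a rule that sets no threshold on these counts, and all 5 were found among the 2202 microRNA genes of the files. The tissue came from female B6CASTF1/J mice, first-generation hybrids of a C57BL/6J and a CAST parent, at 10 days of age, and the labels call it a layer of hippocampus. Both libraries belong to 1 untreated group. They are labelled as biological replicates 1 and 2, and each label names its own set of 3 females, so a library holds tissue of several animals. Total RNA was taken and molecules under 30 nt were sequenced. With a single group, the data give the level of each gene and its steadiness between the libraries, and no effect of a condition.

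A microRNA is cut from a hairpin in a longer transcript, first by Drosha in the nucleus and then by Dicer in the cytoplasm. A strand of the resulting short duplex is loaded into an Argonaute protein, and the seed near its 5′ end pairs with messenger RNAs, which are then repressed. A reference microRNA is used to put samples on a common scale, so it should be well above background and keep the same share of the pool in each sample.

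The counts are per gene and join both arms of a hairpin, so the mature forms behind each gene are shown first. Sequences are those of RefSeq on GRCm38.p6, where all 5 genes had a match, and they run 5′ to 3′ with the seed, positions 2 to 8, in capitals.

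miR-191-5p: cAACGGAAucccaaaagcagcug
miR-191-3p: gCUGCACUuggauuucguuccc
miR-425-5p: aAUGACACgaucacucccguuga
miR-425-3p: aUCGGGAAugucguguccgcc
miR-361-5p: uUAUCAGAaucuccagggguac
miR-361-3p: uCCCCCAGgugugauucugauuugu
miR-423-5p: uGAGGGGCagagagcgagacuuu
miR-423-3p: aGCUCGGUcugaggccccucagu
miR-186-5p: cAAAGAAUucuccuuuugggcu
miR-186-3p: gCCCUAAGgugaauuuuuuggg

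No seed occurs more than once among these 10 arms, so the 5 genes form no seed family. In the RefSeq table, 8 of the 10 seeds were found in no other mouse microRNA gene. The seed of miR-425-5p is also that of Mir489, and the seed of miR-423-5p is also that of Mir6921. The arms are 21 to 25 nt long, and their GC content runs from 40.9% in miR-186-5p to 65.2% in miR-423-3p, against a median of 52.2% over 1674 distinct mature sequences. The longest stretch that any of the 5 annotated transcripts shares with another microRNA gene on the same strand is 13 nt, in Mir186 and Mir425. Of the 429 genes detected here (at least 10 counts in each library), 97 share at least 18 nt with another gene. A read with several possible places is not counted for any gene, and by this measure the 5 genes have no near-identical copy among the annotated microRNA genes.

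Mir191 and Mir425 lie 384 bases apart on the plus strand of chromosome 9, and their hairpins are shown because both come from that locus, with the mature arms in capitals.

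Mir191: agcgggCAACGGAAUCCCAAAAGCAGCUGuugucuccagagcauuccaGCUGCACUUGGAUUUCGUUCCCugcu
Mir425: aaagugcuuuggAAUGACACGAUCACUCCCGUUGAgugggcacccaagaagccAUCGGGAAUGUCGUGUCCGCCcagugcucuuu

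Coordinates are those of mm10 with GENCODE M21. Mir191 (ENSMUSG00000105497.1, chr9:108568319-108568392) and Mir425 (ENSMUSG00000065579.1, chr9:108568777-108568861) each lie within an exon of 4833445I07Rik, a long non-coding RNA. Of the 2 transcripts of 4833445I07Rik that run over Mir191, only 1 has an exon there. Mir423 (ENSMUSG00000065518.2, chr11:77078064-77078172, minus strand) lies in an intron of Nsrp1, which encodes a splicing regulator of nuclear speckles. Mir186 (ENSMUSG00000065431.1, chr3:157544279-157544349, plus strand) lies in an intron of Zranb2, which encodes a zinc finger protein that binds RNA and takes part in splicing. Mir361 (ENSMUSG00000065510.1, chrX:113074824-113074893, minus strand) lies in an intron of Chm, which encodes a Rab escort protein. All 3 host genes run on the strand of their microRNA.

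Replicate 1 held 5479267 sense counts on microRNA genes and replicate 2 held 3563226, which were 36.4% and 37.6% of all reads. Levels are counts per 1000000 of these sense counts (CPM), and they were not divided by gene length, because a read holds a whole mature arm and the arms are of like length. The neuronal microRNAs looked at, Mir128-1, Mir132, Mir137 and Mir138-1, stood between 3904 and 8514 CPM in both libraries. These 4 are a choice among the microRNAs of neurons, and no other tissue was compared. Other neuronal microRNAs stood lower, among them Mir129-1 at 194 and 363 CPM and Mir218-2 at 189 and 271 CPM. Mir153 stood at 10.6 and 76.3 CPM, so it also differed between the libraries. The endothelial Mir126a stood in the range of the 4, at 8303 and 7986 CPM. The blood microRNAs Mir451a and Mir486 stood between 21.2 and 32.8 CPM, the liver microRNA Mir122 at 34.7 and 34.2 CPM, and the muscle microRNA Mir206 at 40.2 and 97.1 CPM. The part of these cell types in the results below was not tested. In tissue such as this, fewer cells of a type and less microRNA per cell cannot be told apart.

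The 5 genes covered a range of levels, in the same order in both libraries. Mir191 was the highest, with 54320 counts in replicate 1 and 37070 in replicate 2, or 9914 and 10403 CPM. It ranked 23rd and 20th of all microRNA genes in the files. Mir361 followed with 23976 and 15659 counts, or 4376 and 4395 CPM. These levels are close to that of Mir137, the neuronal gene directly below it in the mean, at 3904 and 4643 CPM. Mir423 had 10532 and 10079 counts, so that its level was 1922 CPM in the first library and 2829 CPM in the second. Mir425, the neighbour of Mir191, had 5916 and 4058 counts, or 1080 and 1139 CPM. Mir186 was the lowest, with 1069 counts and 195 CPM in replicate 1 and 990 counts and 278 CPM in replicate 2.

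**Figure D1:**
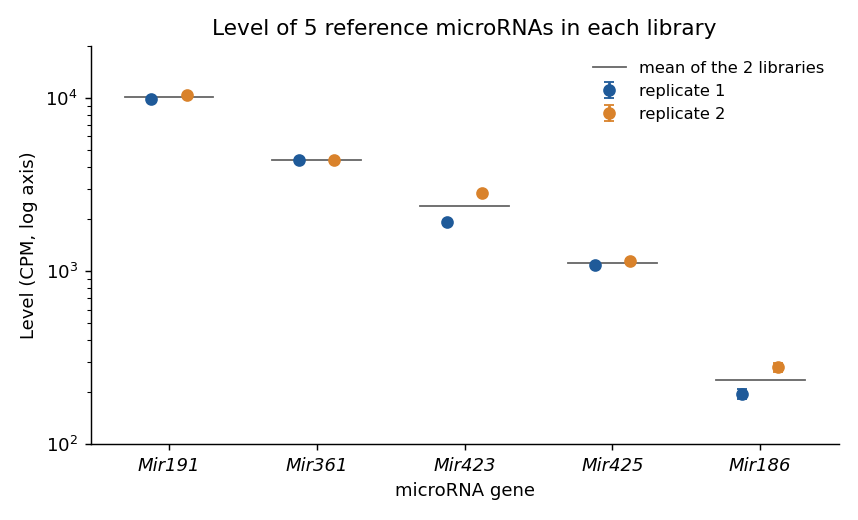
Level of the 5 genes in each library, in CPM on a log axis, with points for the libraries, lines for their mean and bars for the exact 95% interval of counting error. Points of Mir191, Mir361 and Mir425 sit side by side, those of Mir423 and Mir186 are apart, and no gene's pair of points overlaps another's.

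As mean ± SD of the 2 libraries, the levels were 10159 ± 346 CPM for Mir191, 4385 ± 13.3 CPM for Mir361 and 2375 ± 641 CPM for Mir423 (n = 2 each). Mir425 stood at 1109 ± 41.8 CPM and Mir186 at 236 ± 58.5 CPM (n = 2 each). The ranges of neighbouring genes in this order did not overlap, and the gaps between their means were larger than the SD of either gene. By the mean of both libraries, the least separated neighbours were Mir361 and Mir423, 2.28-fold apart in replicate 1 and 1.55-fold apart in replicate 2. All but Mir186 were among the 115 genes with a mean of at least 1000 CPM, and Mir186 itself ranked 176th. Together the 5 genes held 1.75% of the sense counts in replicate 1 and 1.90% in replicate 2, and Mir191 alone held 56.7% and 54.6% of that sum. Capture of a sequence in the library also sets its count, and its part in the order of levels was not tested.

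Steadiness was measured as the log2 ratio of replicate 2 to replicate 1, after the libraries were scaled with TMM factors, which centre the bulk of the genes. Each gene was tested against counting error with an exact two-sided binomial test, and p-values were adjusted over all 429 detected genes. The test compares these 2 libraries, and a ratio has no replicate check of its own. It called 61.3% of the detected genes different, and 94.8% of the 115 genes at or above 1000 CPM. Of the 5 genes it called 3, a share near that of all detected genes. All but Mir186 are at or above 1000 CPM, and among these it called Mir361 and Mir423 but not Mir191 and Mir425. These are too few genes to compare with the share of the abundant genes. The sizes of the ratios are a description with no test. Within 1.2-fold were 3 of the 5 genes, against 42.2% of the detected genes and 52.2% of those at or above 1000 CPM, a share near that of the abundant genes. None (0 of the 5) reached 2-fold, against 12.1% of the detected genes and 5 of the 115. Under TMM their median absolute log2 ratio was 0.056, against 0.33 over all detected genes and 0.25 over those of at least 1000 CPM. Mir191 and Mir425, both within 1.2-fold, come from the same locus.

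Under TMM scaling, Mir191 and Mir425 had ratios near 0. Their plain shares of the sense counts were 0.991% and 1.04% for Mir191 and 0.108% and 0.114% for Mir425 in replicates 1 and 2. The log2 ratio of Mir191 was 0.0073 (95% interval of counting error -0.012 to 0.026, adjusted p = 0.542 in the exact binomial test), and 2 of the 429 detected genes were nearer to 0. Among the 115 genes of at least 1000 CPM, none was nearer under this scaling. Others, such as Mir874 at 0.010, lie inside the interval of Mir191, so this place is not resolved. Mir425 had a log2 ratio of 0.015 (interval -0.043 to 0.073, adjusted p = 0.704 in the exact test), and 6 detected genes were nearer to 0. Mir361 was slightly lower in replicate 2, at 0.962 of its level in replicate 1 and a log2 ratio of -0.056 (interval -0.085 to -0.027). This small difference passed the exact test at an adjusted p of 0.000336, and 31 detected genes were nearer to 0.

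Mir423 and Mir186 were higher in replicate 2. For Mir423 the log2 ratio was 0.50 (interval 0.46 to 0.53), a 1.41-fold difference with an adjusted p of 5.16e-132 in the exact test. Mir186 differed 1.36-fold, at a log2 ratio of 0.45 (interval 0.32 to 0.57, adjusted p = 8.34e-12 in the exact test). Both lie on the less steady side of the table, since 280 of the 429 detected genes were steadier than Mir423 and 264 were steadier than Mir186. Of the detected genes, 28.7% were called higher in replicate 2 and 32.6% lower.

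**Figure D2:**
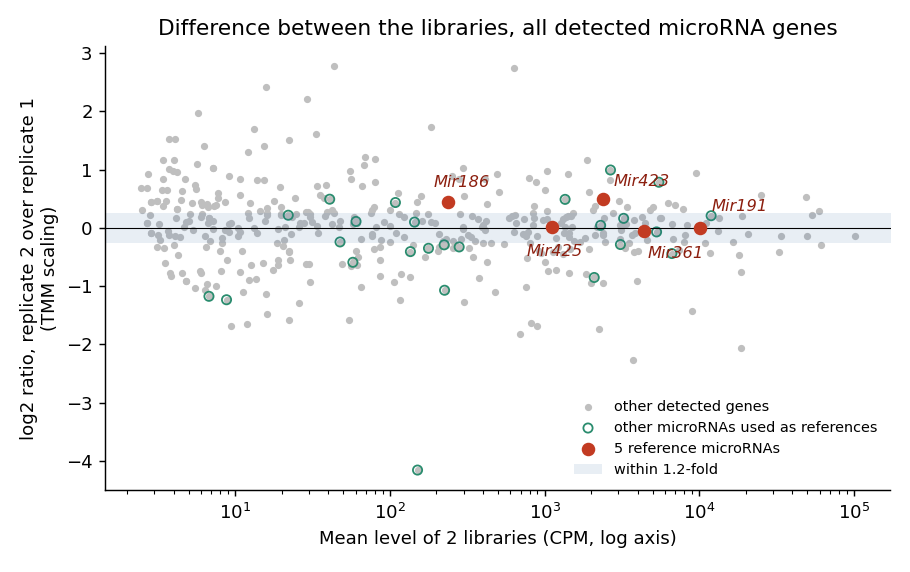
Log2 ratio of replicate 2 to replicate 1 under TMM scaling against the mean level in CPM on a log axis, for the 429 detected genes (grey), 25 other genes of microRNAs used as references (green rings) and the 5 genes (red, named). Mir191, Mir425 and Mir361 lie in the shaded band within 1.2-fold, and Mir423 and Mir186 lie above it.

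Every ratio above depends on the scaling, and the 5 genes shift together when it changes. The ratio of library sizes, replicate 2 over replicate 1, was 0.679 with TMM, 0.700 with DESeq2 size factors, 0.650 with library totals, 0.607 with upper-quartile factors and 0.630 with all reads as the total. The genes' own count ratios were 0.682 for Mir191, 0.686 for Mir425 and 0.653 for Mir361, which lie inside that range. Those of Mir423, 0.957, and Mir186, 0.926, lie above all 5 scalings. Accordingly Mir191, Mir425 and Mir361 were within 1.2-fold and Mir423 and Mir186 beyond it under each of these scalings. The sign and the call of the first 3 genes did change, and the exact test called 4 of the 5 genes with DESeq2 size factors or library totals and all 5 with upper-quartile factors or all reads. Mir191 went from -0.037 with DESeq2 size factors to 0.17 with upper-quartile factors on the log2 scale, and Mir361 from -0.10 to 0.11. The number of detected genes steadier than Mir191 was 2 with TMM, 31 with DESeq2 size factors, 39 with library totals, 66 with all reads and 96 with upper-quartile factors. For Mir361 this number was lowest with library totals, at 1, and highest with upper-quartile factors, at 70. The median absolute log2 ratio of the 5 genes, 0.056 with TMM, was 0.077 with library totals and 0.18 with upper-quartile factors. Over all detected genes it was 0.33 with library totals and 0.39 with upper-quartile factors. Compared with TMM, upper-quartile factors moved the median log2 ratio of all detected genes by 0.16 and all reads by 0.11, and the 5 genes moved by the same steps.

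**Figure D3:**
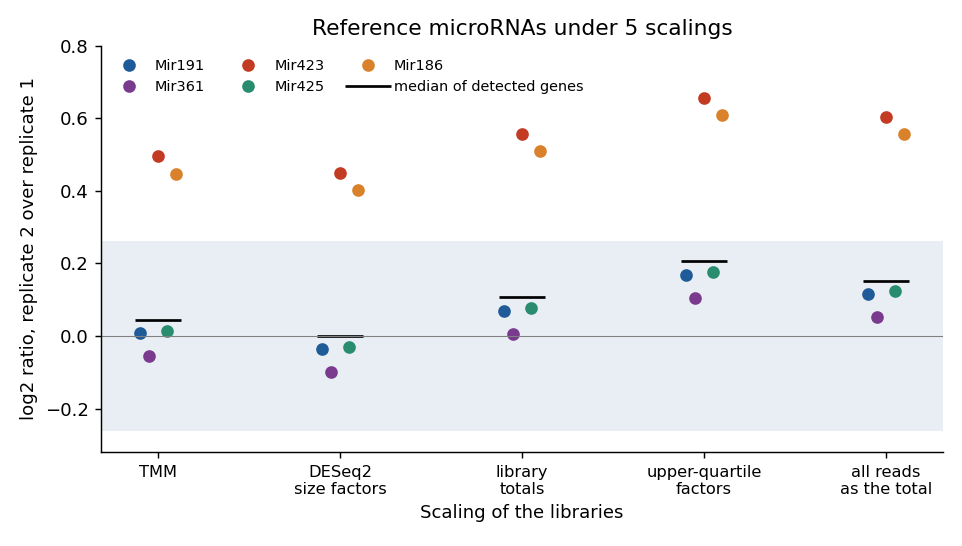
Log2 ratio of replicate 2 to replicate 1 for the 5 genes under 5 scalings, with the median of all detected genes as a black line and the range within 1.2-fold shaded. Under each scaling Mir191, Mir425 and Mir361 stay in the band and Mir423 and Mir186 stay above it.

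Ratios between members need no scaling. Mir191 exceeded its neighbour Mir425 9.18-fold in replicate 1 and 9.14-fold in replicate 2, a difference of -0.0074 on the log2 scale with a standard error from counting of 0.031. For comparison, 398 pairs of detected genes on a shared strand are at most 10 kb apart, and their log2 level ratio changed between the libraries by a median of 0.41 (quartiles 0.19 and 0.73). In 1 of these pairs the change was smaller than in Mir191 and Mir425. The pairs were not matched for depth and include genes with as few as 10 counts, where counting error alone widens the change. A gene in a dense cluster enters many of the pairs, so they are not independent of each other. The change of Mir191 to Mir425 is below its own counting standard error, so its exact place among the pairs is not resolved. Within counting error, the pair held its ratio while its members stood 9.1-fold or more apart in level.

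The 10 pairs that the 5 genes form fell into small and large changes. Mir423 exceeded Mir186 9.85-fold in replicate 1 and 10.2-fold in replicate 2, a change of 0.047 ± 0.067 on the log2 scale (counting standard error). Mir191 exceeded Mir361 2.27-fold and 2.37-fold, a change of 0.063 ± 0.018. The 6 pairs that join Mir423 or Mir186 with Mir191, Mir425 or Mir361 each changed by more than 1.2-fold. The highest change was that of Mir361 to Mir423, by -0.55 ± 0.025, and the ratio of Mir191 to Mir186 went from 50.8-fold to 37.4-fold. With 2 libraries, the common shift of Mir423 and Mir186 is a single observation.

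**Figure D4:**
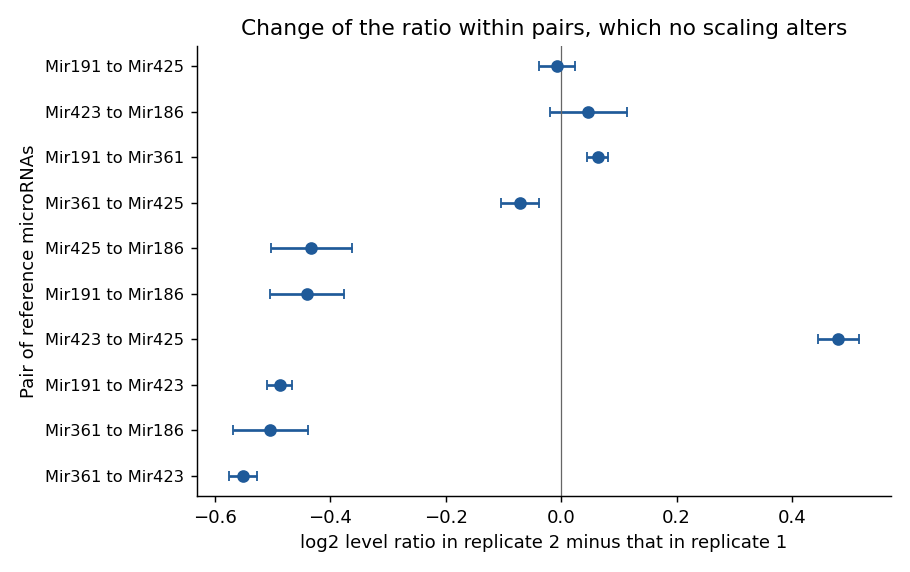
Change of the log2 level ratio of each pair of the 5 genes, replicate 2 minus replicate 1, with bars of 1 counting standard error. The changes of the 4 pairs at the top run from -0.071 to 0.063, and the 6 pairs that join Mir423 or Mir186 with another of the 5 lie beyond 0.43 in size.

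Use of a single gene as the reference was then applied to the whole table, a setting chosen after the data were seen. It moves every log2 ratio by that of the reference gene, so the splits below restate the ratios above as counts of calls and add no support to them. With Mir191 as the only reference, 264 of the 429 detected genes were called different, 121 higher and 143 lower in replicate 2, and with TMM 263 were called, 123 higher and 140 lower. Mir425 gave 118 higher and 144 lower, and Mir361 gave 136 higher and 126 lower. With Mir423 as the reference the calls turned mostly to one side, with 37 genes higher and 259 lower, and Mir186 gave 39 higher and 250 lower. The geometric mean of all 5 genes gave 76 higher and 185 lower, and it shifted the median log2 ratio of the detected genes by -0.18 relative to TMM. Of all calls, 46.8% were higher in replicate 2 with TMM, 12.5% with Mir423 and 29.1% with the geometric mean. Standard scalings moved this share too, to 65.3% with upper-quartile factors and 58.3% with all reads as the total.

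**Figure D5:**
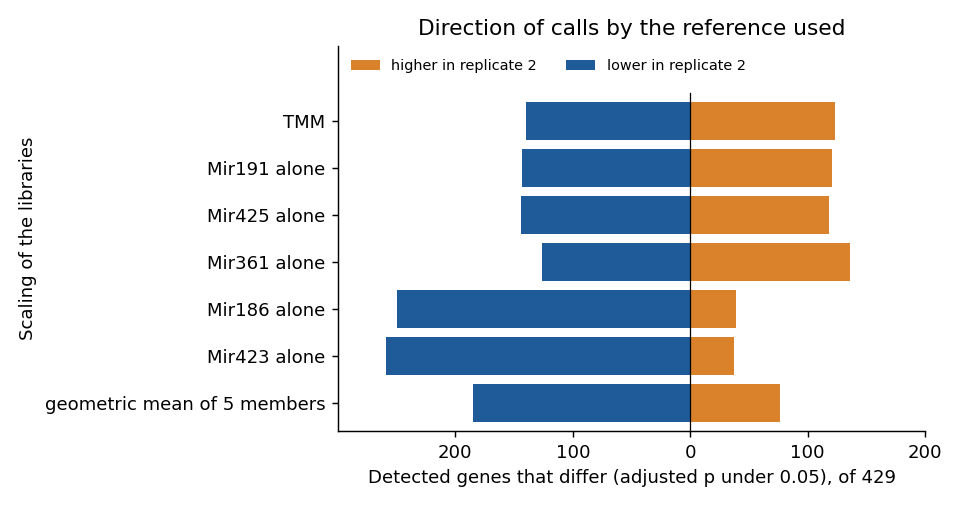
Number of the 429 detected genes called higher (right, orange) or lower (left, blue) in replicate 2 at an adjusted p under 0.05, by the scaling used. Mir191 and Mir425 give splits near that of TMM. Mir361 gives more higher than lower calls, the reverse of TMM, and Mir423 and Mir186 each give at least 250 lower calls.

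The genes directly above and below each of the 5 in mean level are set beside it as a description. Directly above Mir191 in mean level stood Mir541, at 11686 and 10162 CPM, and directly below stood Mir99b, at 6299 and 12667 CPM. Their log2 ratios were -0.26 and 0.95, against 0.0073 for Mir191. Beside Mir425, at 0.015, stood Mir15b at -0.42 and Mir668 at -0.74. Around Mir361 the ratios were 0.093 for Mir181b-2 and 0.19 for Mir137. For Mir423 the order was turned, since its neighbours Mir98 and Mir760 were the steadier ones, at -0.081 and 0.050. Mir186 stood between Mir377 at 0.90 and Mir1306 at -0.20. The 5 steadiest genes of at least 1000 CPM under TMM were Mir191, Mir874, Mir425, Mir34c and Mir501, with log2 ratios from 0.0073 to 0.019. All of these lie inside the counting interval of Mir191, so their order is not resolved. Mir34c, which is known from neurons and ciliated cells and is not among the usual references, stood at 0.015, next to Mir425.

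A list of 25 other genes of microRNAs that serve as references gave ratios on both sides of 0. Copies that yield the same microRNA, such as Mir26a-1 and Mir26a-2, are counted separately in it. All of them were detected, and 21 were called different between the libraries, 8 higher and 13 lower in replicate 2. The share called was 61.3% of the detected genes and 94.8% of those at or above 1000 CPM, and the list holds genes on both sides of that level. Within 1.2-fold were 8 of the 25, against 42.2% of the detected genes and 52.2% of those at or above 1000 CPM. The median absolute log2 ratio of the 25 was 0.41, against 0.33 over all detected genes. This order depended on the scaling, with 0.39 against 0.33 under DESeq2 size factors, 0.34 against 0.33 under library totals and 0.37 against 0.39 under upper-quartile factors. The most abundant were Mir125a, at 10822 and 13068 CPM, Mir151, at 7525 and 5793 CPM, and Mir23a, at 3922 and 7054 CPM. The highest log2 ratios were those of Mir30e, at 0.99, and Mir23a, at 0.78. The lowest was that of Mir26a-2, at -4.16, with 1563 and 59 counts, followed by Mir103-1 at -1.23, with 67 and 19 counts. Of the 25, 17 share at least 18 nt with another microRNA gene, so their counts cover only reads with a unique place. Their median absolute log2 ratio was 0.49, and that of the other 8 was 0.25. The part of shared stretches in these ratios was not tested.

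The strand setting of the counts decided whether Mir191 was seen at all. A microRNA gene on the minus strand, Gm24083 (ENSMUSG00000092915.1, chr9:108568295-108568414), is annotated over the whole of Mir191. In the counts that ignore strand, Mir191 was at 0 in both libraries, where the sense counts held 54320 and 37070. Those sense counts equal 16.9% and 17.2% of the reads that the unstranded counts set aside as ambiguous. Gm24083 itself had 0 sense counts in both libraries, which allows levels of up to 0.548 and 0.842 CPM. Of the 429 detected genes, 21 were at 0 in both libraries without regard to strand, and Mir191 was the second most abundant of them, after Mirlet7e. The other 4 genes of the set lost nothing: Mir423, Mir186 and Mir361 had equal counts both ways, and Mir425 gained 1 count in each library from the opposite strand.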

How the data were processed

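MicroRNA-seq counts of 2 libraries were used, 1 file per library. The authors deposited raw read counts per microRNA gene, without regard to strand and for each strand. The build (mm10) and the annotation (GENCODE M21) are given per the file headers and notes, while aligner, counter and filters on reads were not given in the sources used here. The strand column with the larger total over gene rows was taken as sense. All 2202 gene identifiers matched GENCODE M21. The 4 rows without a gene stayed out of library sizes: reads with several places took 43.2% of replicate 1 and 39.3% of replicate 2, unmapped reads 14.2% and 18.0%, and reads outside microRNA genes 6.16% and 5.17%.

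TMM and upper-quartile factors came from edgeR 4.0.16, size factors from DESeq2 1.42.0 and exact binomial tests and Clopper-Pearson intervals at 95% from scipy 1.17.1. Adjustment was that of Benjamini and Hochberg at 0.05. A fit of edgeR's quasi-likelihood model between 2 single libraries has no residual degrees of freedom and was not made. Ratios add 0.5 counts per library. Intervals and the limit of 3 counts for a zero describe counting error alone, since PCR reads that carry no molecular identifier are not independent molecules. The p-values measure differences between these libraries, whose animals, dissection and preparation cannot be told apart.

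Members and lists were chosen with earlier results of these data known. Named genes are the 5 members, the detected genes directly above and below each by mean level, the 5 steadiest genes of at least 1000 CPM, the 3 most abundant and the 2 highest and 2 lowest ratios of the other reference list, genes annotated over a member and marker genes of cell types. Mirlet7e was named after its values were seen. Alternatives were other scalings, count minimums, totals, strand settings and single libraries.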

Additional observations from a re-analysis of the deposited data

Results flagged for a closer look

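Opposite-strand counts, a column that the comparisons of levels do not use, were flagged at Gm24083, the minus-strand gene annotated over Mir191. It had 54320 opposite-strand counts in replicate 1 and 37070 in replicate 2, above the 3 counts that a count of 0 allows. The strand opposite to Gm24083 is that of Mir191, and these numbers equal the sense counts of Mir191. They are the same reads counted for both genes, not a separate signal, and Gm24083 had 0 sense counts in both libraries.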

How the results depend on the processing

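With 2 libraries, leaving out either gives back the value of the other, so this setting says nothing on stability. Levels moved with the total: with all reads as the total they were 3758, 1622, 881, 410 and 87.7 per 1000000 reads for Mir191, Mir361, Mir423, Mir425 and Mir186. Without Mirlet7b, the most abundant gene, in the total, Mir191 stood at 11305, Mir361 at 4880 and Mir425 at 1234 CPM. In counts without regard to strand, Mir191 stood at 0 CPM, Mir361 at 4663 and Mir425 at 1180 CPM, and Mir191 gave no ratio.

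The log2 ratios of Mir423 and Mir186 kept their direction and call under each alternative run for them. That of Mir191 was 0.070 with library totals, 0.17 with upper-quartile factors and 0.12 with all reads, past the threshold each time. It was -0.037 with DESeq2 size factors (exact test, adjusted p = 0.000292) and -0.22 against the geometric mean of the other 4 genes. Mir425 was at 0.077, 0.18 and 0.12 under the first 3, past the threshold, at -0.030 with DESeq2 size factors and at -0.21 against the other 4. Mir361 turned to 0.0062, 0.11 and 0.053 with library totals (exact test, adjusted p = 0.751), upper-quartile factors and all reads. A scaling shared by all genes adds 1 constant to every log2 ratio, while the comparison with the other 4 genes uses a different reference for each.

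The number of genes called different was 286 of 670 with at least 1 count in each library, 220 of 267 with at least 100, 288 of 817 with at least 1 in either library and 245 of 406 without regard to strand, and it ranged from 254 to 296 over the other scalings of the 429 detected genes. Of the other reference microRNA genes, 20 or 21 of 25 were called under TMM, DESeq2 size factors, library totals and upper-quartile factors. Depth limits Mir186 most, whose interval of the log2 ratio ran from 0.32 to 0.57 at 1069 and 990 counts.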
